A study of Mus musculus with 6 samples.

Results

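Processed pseudogenes are copies of messenger RNAs that were reverse transcribed and inserted elsewhere in the genome, so they lack the introns and usually the promoter of the gene they came from, here called the parent. The deposited gene table lists 9773 such loci among its 54532 genes, and 1005 of them (10.3%) reached 1 FPKM or more on average across the 6 libraries. FPKM is fragments per kilobase of the gene, per 1000000 of the library's scaling. These 1005 loci, 920 with the biotype processed_pseudogene and 85 with transcribed_processed_pseudogene, are described here. They were chosen by their own level in these libraries, so their being expressed is no finding. The loci just inside the threshold were Gm18393 at a mean of 1.003 FPKM, Gm12293 at 1.008 and Gm14472 at 1.009, and those just outside were Gm14130 at 0.999, AC098880.2 at 0.996 and Gm44833 at 0.995.

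RNA was sequenced from STRA8+ cell suspensions of mouse testis, with 3 libraries of genotype Cre as controls and 3 labelled knockout, from a conditional knockout. STRA8 is a factor that germ cells make as they enter meiosis. The labels give neither the deleted gene, the Cre driver, the age nor the strain, and the study's title names BCAS2 and hnRNPH1, which are splicing proteins. Nothing in the labels says that the libraries of a group came from separate animals, so p-values rest on how far these libraries spread, and that may be technical. The extraction protocol speaks of retinas where every other label says testis. Bcas2 had 19.9 ± 0.586 FPKM (SD, n = 3) in the control and 4.85 ± 0.515 in the knockout, Hnrnph1 had 63.8 ± 3.26 and 140.1 ± 14, and Stra8 had 17.0 ± 5.55 and 133 ± 6.42.

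A retrocopy usually depends on nearby sequence to be transcribed, and many mouse retrocopies are transcribed in the testis. Some keep an open reading frame and make protein in male germ cells, such as autosomal copies of X-linked genes that are known to be used while the X chromosome is silent in meiosis. Highly expressed housekeeping genes, above all those of ribosomal proteins, leave the most copies. Young copies are almost identical to their parent, so a short read from one can often be placed on the other.

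The loci are best seen beside their parents. In the lines that follow, 90 bases of the parent's coding sequence are set beside the aligned bases of the copy, from GENCODE M21 transcripts on GRCm38, 5′ to 3′ in the parent's sense. Capitals mark the bases at which a copy differs from its parent. The sets were chosen to show old and young copies that the results turn on. Gm11780 (chr4:4528630-4528719, minus strand) differs from the phosphatase gene Ptp4a2 at 19 of 90 bases. Phgdh-ps1 (chr7:83711630-83711719, minus strand) differs at 2 from Phgdh, the enzyme that starts serine synthesis.
Ptp4a2: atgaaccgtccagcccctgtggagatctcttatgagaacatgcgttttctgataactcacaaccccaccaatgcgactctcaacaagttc
Gm11780: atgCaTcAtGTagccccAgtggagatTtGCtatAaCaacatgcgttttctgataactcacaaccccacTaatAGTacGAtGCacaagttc
Phgdh: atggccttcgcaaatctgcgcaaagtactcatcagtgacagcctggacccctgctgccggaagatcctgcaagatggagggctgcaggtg
Phgdh-ps1: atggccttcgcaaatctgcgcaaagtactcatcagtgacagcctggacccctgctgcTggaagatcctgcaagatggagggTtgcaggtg

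Gm6981 (chr9:52003120-52003209, minus strand) and Gm7336 (chr7:51746763-51746852, plus strand) are both copies of the glycolytic enzyme gene Gapdh, with 5 and 0 differences in the window. Ppp1r2-ps3 (chr19:30539345-30539434, minus strand) and Ppp1r2-ps7 (chrX:22461843-22461932, plus strand) are copies of Ppp1r2, which encodes an inhibitor of protein phosphatase 1, with 2 and 23 differences.
Gapdh: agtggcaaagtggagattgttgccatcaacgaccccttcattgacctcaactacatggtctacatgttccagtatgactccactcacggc
Gm6981: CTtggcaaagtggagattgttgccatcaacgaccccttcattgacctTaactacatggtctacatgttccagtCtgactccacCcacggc
Gm7336: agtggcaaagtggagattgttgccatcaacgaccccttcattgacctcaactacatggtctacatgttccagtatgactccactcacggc
Ppp1r2: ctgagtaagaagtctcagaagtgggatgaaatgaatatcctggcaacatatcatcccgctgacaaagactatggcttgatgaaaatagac
Ppp1r2-ps3: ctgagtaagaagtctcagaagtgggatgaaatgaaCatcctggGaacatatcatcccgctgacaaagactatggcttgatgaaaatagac
Ppp1r2-ps7: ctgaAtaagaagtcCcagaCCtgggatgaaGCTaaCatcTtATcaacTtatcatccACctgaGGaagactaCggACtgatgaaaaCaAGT

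Gm8730 (chr8:102865709-102865798, minus strand) and Gm9625 (chr13:67810246-67810335, plus strand) are copies of Rplp0, a protein of the ribosomal stalk. Each differs from Rplp0 at 1 base of the window, and their windows are identical to each other. Hmgn2-ps1 (chr5:84123313-84123402, plus strand) has 0 differences from Hmgn2, which encodes a nucleosome-binding protein.
Rplp0: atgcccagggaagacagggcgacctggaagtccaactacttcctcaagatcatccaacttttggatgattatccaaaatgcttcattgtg
Gm8730: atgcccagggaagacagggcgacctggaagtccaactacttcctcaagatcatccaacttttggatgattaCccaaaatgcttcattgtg
Gm9625: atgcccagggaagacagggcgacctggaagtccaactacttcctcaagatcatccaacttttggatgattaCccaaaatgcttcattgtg
Hmgn2: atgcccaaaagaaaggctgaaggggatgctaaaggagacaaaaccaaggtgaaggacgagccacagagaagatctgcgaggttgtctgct
Hmgn2-ps1: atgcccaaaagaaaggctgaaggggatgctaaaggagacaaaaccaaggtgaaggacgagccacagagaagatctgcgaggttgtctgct

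A parent was found for 957 of the 1005 loci, from 606 different parent genes, and 48 loci had none. The symbol gave the parent of 143 loci, the deposited description that of 21, and alignment to protein-coding transcripts that of 793. Of the 950 loci with an alignment to their parent, 945 aligned in the sense direction. Median identity to the parent was 97.7%, with quartiles of 90.9% and 99.3%. Median length was 589 bases, and 878 loci were a single exon. An open reading frame of at least 90% of the parent's coding length was present in 258 loci. How far a locus can be told from other genes was measured by cutting it into windows of 100 bases and counting those found in no annotated transcript of another gene. The median locus had 82.3% such unique windows, 77 loci had none and 301 had only unique ones. Values of loci with few unique windows are uncertain, because the counting of reads that match several places is not given in the sources used here.

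The reads behind the loci were few: the median locus had 188 reads over the 6 libraries, and 297 loci had under 100. The libraries held 14532453 to 16963019 recovered reads. The loci took 0.92% to 0.963% of the reads in the control libraries and 0.625% to 0.696% in the knockout libraries. Their share of the summed FPKM was 3.26% to 3.35% in the control libraries and 3.24% to 3.54% in the knockout libraries. At least 1 FPKM was reached by 861 to 890 of the loci in each control library and by 610 to 612 in each knockout library. Over all genes those numbers were 16653 to 16877 and 13077 to 13235.

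Of the 1005 loci, limma called 213 higher and 544 lower in the knockout (adjusted p under 0.05), and 248 passed in neither direction. The model was fitted over all 16791 genes whose mean reached 1 FPKM. In that fit 36.2% of all genes were higher and 50.4% lower, 86.6% in all, against 21.2% and 54.1% of the loci, so the share of loci called lower was near that of all genes. The groups of libraries did not overlap at 209 loci that were higher and 530 that were lower, where the same held for 36.9% and 51.1% of all genes. The median log2 fold change was -0.83 for the loci and -0.41 for all genes tested. These counts cannot stand as support for a change of the loci as a class, because a mean over both groups keeps a locus that is high in 1 group alone: 372 loci had a knockout mean under 1 FPKM and 109 a control mean under 1 FPKM. Among the 524 loci with at least 1 FPKM in both groups, 124 were higher and 189 lower, with a median of -0.10. For all genes with that level in both groups, 43.8% were higher and 37.7% lower, and the median was 0.13. With FPKM rescaled the direction turned in those loci, with 309 higher, 66 lower and a median of 1.01, and among all 10997 such genes 7718 were higher and 2002 lower.

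The scaling between libraries bears on each of these directions. The divisor behind the deposited FPKM was 0.691 to 0.774 times the library's recovered reads in the controls and 1.37 to 1.42 times in the knockout. With FPKM rescaled to sum to 1000000 in every library, the median of all genes moved to 0.71 and that of the loci to 0.16, with 413 loci higher and 375 lower, against 54.2% and 36.2% of all genes. Under all 5 scalings tried, 212 loci were called higher and 341 lower. A locus named below as higher or lower kept that call under rescaling unless its sentence or paragraph says otherwise, and for most groups of loci the rescaled counts are given too.

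**Figure D1:**
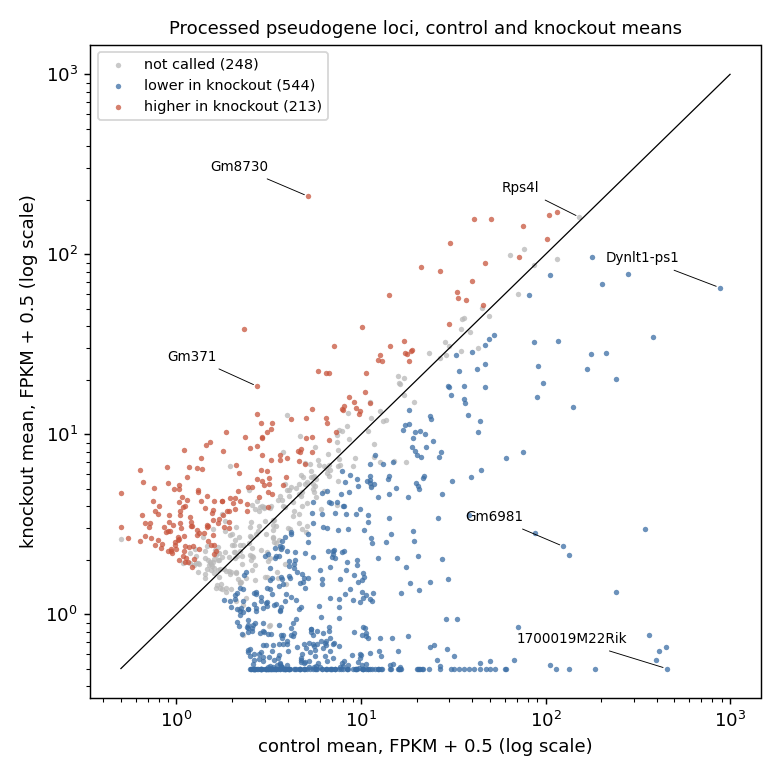
Mean FPKM of each of the 1005 loci in the control (x axis) and the knockout (y axis), both with 0.5 added and on log scales; each point is a locus, coloured by its limma call, and the line marks equal means. The row of points at the bottom are loci with 0 knockout reads, 136 in all; Gm8730 lies far above the line at means of 4.64 and 210.1 FPKM, and 1700019M22Rik far below it at 452 and 0.

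The cell types in the suspension moved with the groups. All 8 markers of spermatids were lower in the knockout, their summed level going from 15360 to 17890 FPKM in the control libraries to 4.06 to 6.96 in the knockout libraries. All 8 markers of pachytene spermatocytes were lower too, from 5759 to 6767 FPKM to 88.1 to 125.6. Of 8 spermatogonia markers 7 were higher and 1 was lower, from 69.2 to 114.1 FPKM to 561.8 to 673.1, and the 1 that was lower was not lower with FPKM rescaled. All 8 markers of Sertoli cells, the somatic nurse cells of the testis, were higher, from 86.4 to 206.7 FPKM to 392.4 to 722.9. Of 5 Leydig cell markers tested 1 was higher and 3 were lower, of 6 macrophage markers 3 and 0, and of 3 erythroid markers 0 and 1. With FPKM rescaled these were 1 and 1, 6 and 0, and 0 and 0. In bulk RNA, fewer cells of a type and less RNA per cell cannot be told apart. The part of these shifts in the results on each locus was not tested.

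The 6 most abundant loci of the control libraries were all lower in the knockout. Dynlt1-ps1, a copy of genes for a dynein light chain, had 1000, 847.5 and 784.2 FPKM in the control and 57.0, 74.3 and 63.3 in the knockout. The groups did not overlap, and the log2 fold change was -3.75 ± 0.134 (SE; limma's adjusted p = 6e-08). The whole locus matched 3 genes equally well and had 0% unique windows, so its reads cannot be told from theirs. Dynlt1c, 1 of those 3, was listed at 10.6 ± 0.779 and 2.12 ± 1.01 FPKM and was itself made up of 13.5% unique windows.

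1700019M22Rik on chromosome 12 is a copy of the X-linked gene 1700084M14Rik, 92.0% identical, with an open reading frame of 354 bases and only unique windows. It had 503.4, 464.5 and 388.4 FPKM in the control and 0 reads in all 3 knockout libraries. Against a floor of 3 reads over the knockout group it was at least 3320-fold lower. Its parent was also lower, from 57.8 ± 1.73 to 0.11 ± 0.191 FPKM. In the control libraries the copy stood at 6.93 to 8.72 times the level of its parent.

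Gm11780, the Ptp4a2 copy shown above, had 517.6, 442.0 and 380.4 FPKM in the control and 0, 0.479 and 0 in the knockout. The control value was 2855 times the knockout value (95% exact interval 1223 to 8794, counting error only). Ptp4a2 itself, a widely expressed phosphatase, had 39.0 ± 0.834 and 41.9 ± 1.60 FPKM, and its difference did not pass the test (log2 fold change 0.10 ± 0.0782, limma's adjusted p = 0.25), though with FPKM rescaled Ptp4a2 was higher by 1.29. The copy was 78.4% identical to Ptp4a2 and had only unique windows and a reading frame of 516 bases. In the control it was at 10 to 13.2 times its parent's FPKM and in the knockout at 0 to 0.0113 times. The lengths behind these FPKM were 516 bases for the copy and 4377 for Ptp4a2. In reads the control group held 8095 and 6053. Every ratio of copy to parent level given for a locus is of FPKM and depends on such lengths.

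Copies of Rnf19a, which encodes a ubiquitin ligase, showed the same loss. 1700001J11Rik had 470.4, 351.6 and 366.6 FPKM in the control and 0, 0.148 and 0.0181 in the knockout. Gm7444 had 381.0, 281.1 and 421.1 FPKM in the control and 0.305, 0.183 and 0.318 in the knockout. Their log2 fold changes were -9.48 ± 0.151 and -8.86 ± 0.162 (SE), against -3.48 ± 0.133 for Rnf19a, which went from 209.5 ± 36.1 to 18.1 ± 1.36 FPKM. The copies were 89.9% and 89.4% identical to Rnf19a with 90.8% and 94.2% unique windows. In each control library both copies stood at 1.53 to 2.08 times Rnf19a, and in each knockout library at 0 to 0.0189 times, so the ratios did not overlap between groups.

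BC106175, a copy of the proline-rich protein gene Prr30 at 81.4% identity, had 430.5, 394.8 and 408.0 FPKM in the control and 0, 0.311 and 0.0702 in the knockout. Prr30 moved with it, from 331.8 ± 28.1 to 0.07 ± 0.121 FPKM. Gm10297, a copy of part of Gkap1, whose product binds a protein kinase, had 422.5, 367.8 and 359.2 FPKM in the control and 36.3, 35.5 and 31.4 in the knockout. Its change, -3.46 ± 0.102, was close to that of Gkap1, -3.50 ± 0.111, and the ratio of copy to parent was 2.22 to 2.51 in the control and 2.37 to 2.52 in the knockout. The copy was 100% identical to Gkap1 over its aligned bases and had 3.26% unique windows, so the reads of the pair cannot be told apart.

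Another 3 of the largest falls ended at 0 reads. Spanxn4, a locus of the sperm protein family SPANX with no parent found by alignment, had 186.5, 178.4 and 188.0 FPKM in the control and was at least 1630-fold lower. 1700049L16Rik, a copy of Jpt2, had 140.2, 135.1 and 123.6 FPKM and was 1500-fold lower at that floor (interval from 1220). 1700022A21Rik, a copy of the glycerol-3-phosphate dehydrogenase gene Gpd1, had 124.4, 115.8 and 101.0 FPKM and was 3420-fold lower at that floor (interval from 2777). The parents of the latter 2 were low in the control and higher in the knockout: Jpt2 went from 3.03 ± 0.401 to 13.9 ± 1.97 FPKM and Gpd1 from 2.79 ± 1.20 to 6.56 ± 2.20. All 3 loci had only unique windows.

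**Figure D2:**
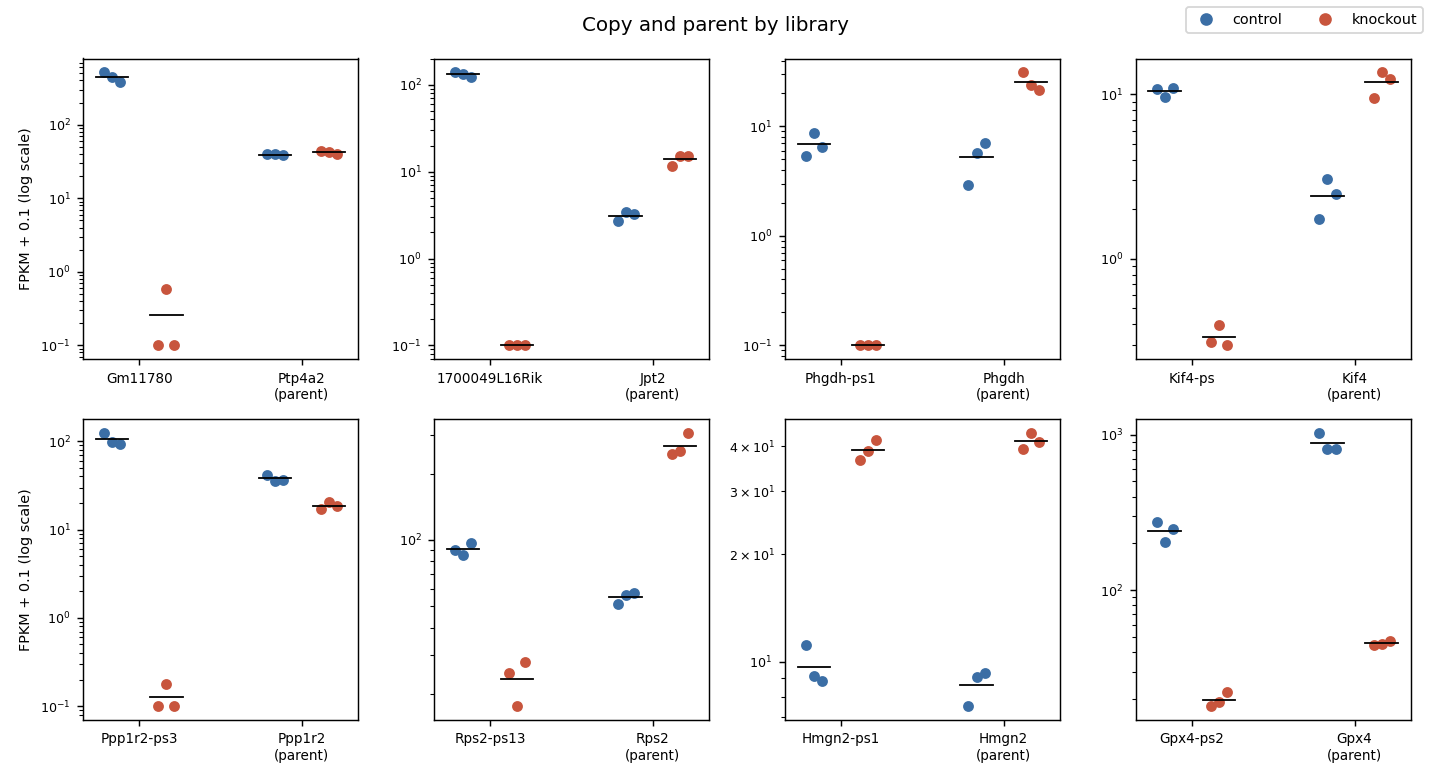
FPKM plus 0.1 (log scale) of 8 copies and their parents in each library; points are libraries, short lines are group means, and panels have their own axes. Gm11780, 1700049L16Rik, Phgdh-ps1 and Kif4-ps fall to near 0 while their parents do not, and Hmgn2-ps1 and Gpx4-ps2 move the way of theirs.

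The most abundant loci of the knockout libraries were copies of ribosomal protein genes. Rpl17-ps10 had 111.3, 107.9 and 123.3 FPKM in the control and 140.1, 181.6 and 194.0 in the knockout, a log2 fold change of 0.58 ± 0.134 (SE; limma's adjusted p = 0.0039). Rpl17-ps3 had 122.0, 91.7 and 99.3 FPKM and then 138.3, 185.9 and 169.9. The groups did not overlap at either locus, and Rpl17 rose by a like amount, 0.86 ± 0.193. Both copies were over 99% identical to Rpl17 with 27.0% and 27.4% unique windows. Rps4l, a diverged autosomal copy of the X-linked gene Rps4x with 98.3% unique windows, stood at 154.2, 147.6 and 153.5 FPKM in the control and 143.2, 159.5 and 178.7 in the knockout. Its groups overlapped and the difference did not pass the test (0.07 ± 0.101, limma's adjusted p = 0.50), but with FPKM rescaled it was higher by 1.26. Rps4x went from 8.90 ± 2.12 to 27.1 ± 5.12 FPKM. Rps4l was thus above its parent in every library, by 14.2 to 23.8 times in the control and 4.37 to 7.84 times in the knockout.

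Besides Gm8730, a copy of Rplp0 described further on, 5 of the 8 largest rises began from 6 control reads or fewer. Gm37784, a fragment of a copy of Insig1, which restrains cholesterol synthesis, had 0, 0.403 and 0 FPKM in the control and 5.62, 3.14 and 8.69 in the knockout, on 1 and 69 reads. Gm37089, a fragment of a copy of the ubiquitin ligase gene Cop1, had 0, 1.18 and 0 FPKM and then 4.30, 6.90 and 7.11, on 2 and 49 reads. It had 0% unique windows, so its reads cannot be told from those of other genes. Cop1 itself went from 10.8 ± 1.08 to 4.35 ± 0.677 FPKM, a fall not kept with FPKM rescaled (-0.13, limma's adjusted p = 0.37). Gm48398 rose on 5 and 105 reads and Gm48037 on 4 and 63. Gm371, an X-linked locus with no parent found, rested on more reads, 99 and 1403. It had 1.92, 2.08 and 2.67 FPKM in the control and 16.4, 19.5 and 18.2 in the knockout, a log2 fold change of 2.77 ± 0.136 (SE; limma's adjusted p = 4.1e-07).

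Other X-linked loci were among the rises. Gm6038 had 0.315, 1.12 and 1.63 FPKM in the control and 8.19, 9.91 and 7.59 in the knockout, while the gene it aligned to best, 3830417A13Rik, fell from 13.9 ± 3.73 to 1.59 ± 0.371. Gm15190, a copy of Lamtor5, a subunit of the lysosomal complex that recruits mTORC1, had 1.44, 0.276 and 0.294 FPKM and then 5.19, 7.16 and 5.95. Lamtor5 had 37.6 ± 1.70 and 33.3 ± 2.37 FPKM. Supt20-ps rose from 0.873 ± 0.329 to 5.89 ± 1.22 FPKM, while Supt20, a subunit of the SAGA coactivator, fell from 171.0 ± 17.6 to 16.3 ± 2.58.

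By the parent's role, copies of cytosolic ribosomal protein genes were the largest group, 236 loci from 69 parents. Of these, 60 were higher and 88 lower, with a median log2 fold change of -0.07, and with FPKM rescaled 134 were higher and 61 lower, with a median of 1.06. The 79 ribosomal protein genes themselves had 47 higher and 12 lower and a median of 0.52, and with FPKM rescaled 75 higher and 0 lower. In 106 pairs of copy and parent both passed the test, 60 in the same direction, 41 with the copy lower and the parent higher, and 5 the reverse. With FPKM rescaled 125 of 181 such pairs went the same way, and in the other 56 the copy was lower and the parent higher. Of the 103 ribosomal copies with at least 80% unique windows 55 were lower and 19 higher, and of the 131 with fewer 33 were lower and 41 higher. Rescaled, these were 49 lower and 45 higher, and 12 lower and 88 higher.

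Copies of genes for HMG and histone proteins, which package DNA, numbered 37, with 17 higher and 13 lower and a median of 0.65, or 23 and 5 with FPKM rescaled. Copies of glycolysis genes numbered 14, with 2 higher and 11 lower and a median of -2.71, or 3 and 10 rescaled. Of 30 copies of respiratory chain genes 4 were higher and 18 lower, of 33 copies of proteasome and ubiquitin genes 7 and 16, of 19 copies of translation factor genes 3 and 13, of 17 copies of chaperone genes 2 and 10, and of 7 copies of cytoskeletal genes 0 and 6. Of 30 copies of genes for RNA-binding and splicing proteins 8 were higher and 10 lower. With FPKM rescaled the balance of several of these groups turned: 12 higher and 6 lower for the respiratory chain, 15 and 4 for proteasome and ubiquitin, 8 and 6 for chaperones, and 18 and 5 for RNA-binding and splicing. It was 6 and 7 for translation factors and 2 and 3 for the cytoskeleton. The 48 loci without a parent had 9 higher and 35 lower, with a median of -2.71, or 13 and 31 rescaled. Copies of a parent share its sequence and are not independent of each other.

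Copies of the same parent differed widely in some families and little in others. All 7 copies of Ppp1r2 were lower. Ppp1r2-ps3 had 124.6, 99.6 and 93.2 FPKM in the control and 0, 0.0788 and 0 in the knockout. Ppp1r2-ps7 on the X chromosome had 55.4, 42.9 and 49.5 FPKM and then 0 reads, at least 775-fold lower. Ppp1r2 went from 38.1 ± 3.29 to 18.6 ± 1.51 FPKM, a call that was not kept with FPKM rescaled (0.16, limma's adjusted p = 0.097). Ppp1r2-ps3 was at 2.56 to 2.98 times its parent in the control and at 0 to 0.0039 times in the knockout.

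Of 5 copies of Phgdh, 4 were lower and 1 did not pass, though that 1 was higher with FPKM rescaled. Phgdh-ps1 had 5.29, 8.58 and 6.35 FPKM in the control and 0 reads in the knockout, at least 108-fold lower, on 184 control reads. Phgdh rose, from 2.85, 5.6 and 6.95 FPKM to 31.2, 23.8 and 21.4 (log2 fold change 2.26 ± 0.290). The copy that did not pass, Gm7901, was 98.8% identical to Phgdh with 53.1% unique windows, and the others were 93.6% to 96.6% identical with 92.7% to 98.9%.

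Gapdh had 8 copies among the loci, 6 lower and 2 higher, or 5 and 2 with FPKM rescaled. Gm6981, with an open frame of 1008 bases, had 133.1, 109.6 and 129.2 FPKM in the control and 1.60, 1.72 and 2.35 in the knockout, a log2 fold change of -5.71 ± 0.141 (SE; limma's adjusted p = 7.8e-09). Gm7336, 99.8% identical to Gapdh with 0% unique windows, had 0.243, 0.556 and 0.791 FPKM and then 4.88, 4.37 and 4.19. Gapdh itself, an enzyme that nearly every cell makes in quantity, was listed at only 0.362 ± 0.0767 and 1.77 ± 0.228 FPKM, and 22.0% of its own windows were unique. The listed level of Gapdh is therefore uncertain, and so is any ratio of a copy to it.

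Rps2, a protein of the small ribosomal subunit, had the most copies, 19, of which 8 were higher and 9 lower, or 11 and 8 with FPKM rescaled. Rps2 rose from 54.8 ± 3.06 to 268.3 ± 33.2 FPKM. Gm5070 had 29.9, 23.6 and 25.6 FPKM in the control and 0, 0.0573 and 0 in the knockout, with 79.4% unique windows. Gm45855 went the other way, from 1.13, 3.20 and 2.77 FPKM to 9.66, 10.3 and 13.1, with 47.0%. Rps2-ps13 on the X chromosome, 99.2% identical to Rps2 with 23.5% unique windows, had 89.7, 85.8 and 96.7 FPKM and then 24.7, 17.5 and 27.8.

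Hmgb1, a chromatin protein that bends DNA, had 10 copies, of which 9 were higher and 0 lower. Gm5518 had 14.3, 13.9 and 12.7 FPKM in the control and 63.5, 59.6 and 53.7 in the knockout. Hmgb1-ps2 had 2.51, 7.06 and 6.51 FPKM and then 27.7, 17.6 and 21. The copy that did not pass, Hmgb1-ps7, had 0, 3.99 and 0.376 FPKM and then 7.27, 0.915 and 10.4, and its groups overlapped. With FPKM rescaled all 10 copies were called higher, Hmgb1-ps7 among them. Hmgb1 rose with its copies, from 5.20 ± 1.12 to 18 ± 3.0 FPKM. The copies had from 0% unique windows, at Gm15387, to 100%, at Gm7890, with 34.4% at Gm5518 and 27.75% at Hmgb1-ps2. Reads of copies with few unique windows cannot be told from those of Hmgb1. Hmgn2-ps1 had 11.1, 9.0 and 8.73 FPKM and then 36.4, 38.6 and 41.5, against 8.54 ± 0.974 and 41.2 ± 2.18 for Hmgn2, and its windows were 0% unique.

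All 7 copies of H3f3a, which encodes the histone variant H3.3, were lower by 0.82 to 1.35 on the log2 scale, as was H3f3a, by 0.92. With FPKM rescaled 0 of the 7 passed in either direction and H3f3a was higher by 0.26. All 7 copies of AF366264 were lower, as was that gene, which went from 35.3 ± 2.99 FPKM to 0 reads. Of 6 copies of the chromatin remodeller gene Smarca5 1 was higher and 0 lower, and of 5 copies of the nucleolar protein gene Npm1 likewise 1 and 0. For both, all or most passed as higher with FPKM rescaled, 6 of 6 and 4 of 5.

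**Figure D3:**
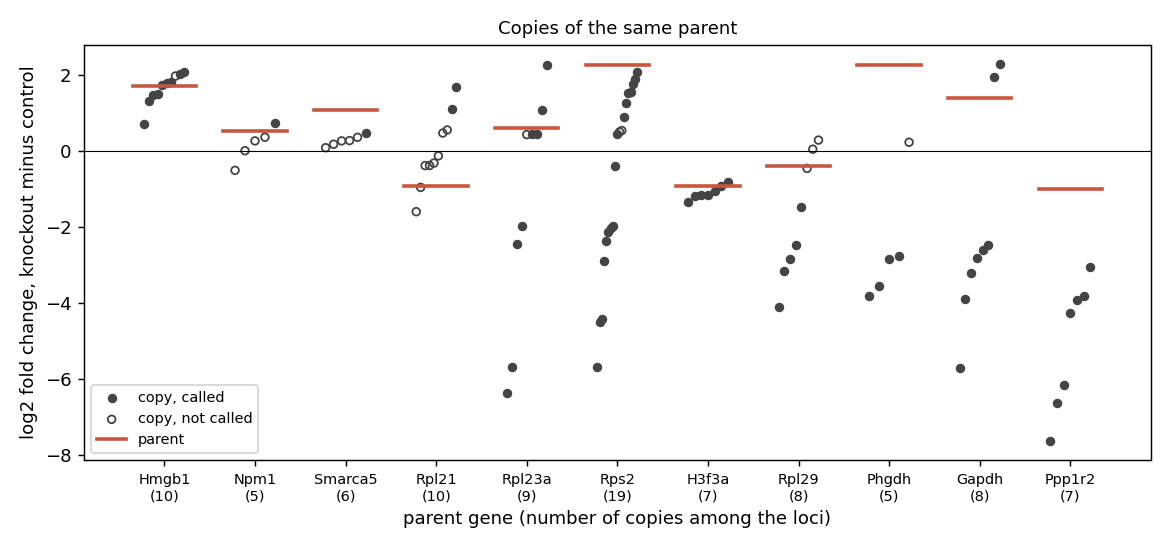
Log2 fold change, knockout minus control, of the copies of 11 parents (points, filled where limma called them) and of each parent (red line); the number of copies is below each name. Copies of H3f3a sit close to their parent, all of those of Rps2, Phgdh and Ppp1r2 lie below theirs, and those of Rpl23a and Gapdh lie on both sides.

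The direction of a copy was set beside that of its parent. In 914 pairs both genes were tested, and both passed in 587, of which 403 (68.7%) went the same way. Where under 20% of the copy's windows were unique, 70 of 79 such pairs (88.6%) went the same way and the median absolute difference in log2 fold change was 0.39. Between 20% and 80% it was 157 of 200 (78.5%) with a median of 0.53. At 80% or more it was 175 of 307 (57.0%) with a median of 1.83, and in 116 of those pairs the copy was lower while the parent was higher. With FPKM rescaled the shares were 94.6%, 84.3% and 50.9%. Across the pairs of each class, Pearson's r between the changes was 0.63 (142 pairs), 0.45 (331) and 0.31 (437). Pairs share libraries and, at high identity, reads, so these are descriptions. The shared reads' part in the likeness was not tested.

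The loci were also counted by how far they can be told from other genes. Under 20% unique windows 35 of 146 loci were higher and 59 lower, with a median log2 fold change of -0.34, which turned to 82 higher and 24 lower with FPKM rescaled. Between 20% and 80% 85 of 342 were higher and 143 lower, with a median of -0.22, which turned to 181 and 70. At 80% or more 93 of 513 were higher and 341 lower, with a median of -2.12, and rescaled these were 149 and 281. By identity to the parent, 18 of 121 loci at 80% to 90% were higher and 90 lower, against 48 and 74 of the 191 loci in the class of highest identity. Rescaled, these were 30 and 76, and 115 and 22. Unprocessed pseudogenes, which arise by duplication and keep introns, had 44 of 216 higher and 148 lower and a median of -2.38, or 63 and 131 rescaled. The difference between these classes was not tested.

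**Figure D4:**
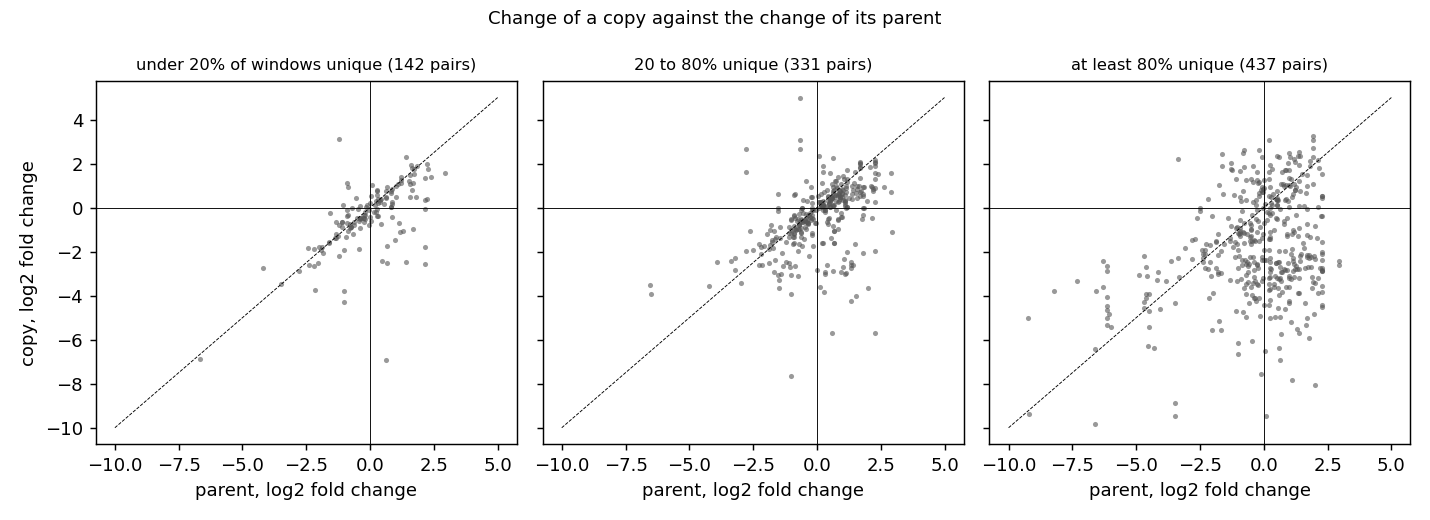
Log2 fold change of each copy (y axis) against that of its parent (x axis), in 3 classes of the copy's share of unique 100-base windows; each point is a pair and the dashed line marks equal change. Points lie near the line under 20% and spread below it at 80% or more, where the median absolute difference is 1.83.

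The copy stood above its parent's level, by group means, in 161 of the 914 pairs in the control and in 94 in the knockout. The difference was not tested. Both numbers compare FPKM within a group, so the scaling between libraries does not enter them, but the length used for each gene does. For Rps10 that length was 2311 bases, against 498 coding bases, and for its copy Rps10-ps2 it was 496 bases. The part of such lengths in these counts was not tested. Rps10-ps2 was listed above its parent in both groups, with 64.5, 69.4 and 90.5 FPKM in the control and 155.7, 136.9 and 138.4 in the knockout. Rps10 was listed at 0.823 ± 0.489 and 5.04 ± 0.635. Only 26.2% of the windows of Rps10-ps2 were unique, and 52.3% of those of Rps10. The listed levels of this pair are therefore uncertain, and so is the ratio between them. Eif4a-ps4 had 26.3, 30.8 and 33.0 FPKM and then 108.1, 116.3 and 118.8, at 0.746 to 0.99 times Eif4a1, an RNA helicase of translation initiation, in every library, with 8.94% unique windows. Gpx4-ps2 fell from 272.3, 203.7 and 245.5 FPKM to 17.9, 19.1 and 22.1, at 0.253 to 0.469 times Gpx4, the peroxidase that protects lipids, with 32.2% unique windows.

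Autosomal copies of X-linked genes numbered 29, with 6 higher and 17 lower, or 11 and 15 with FPKM rescaled. In 28 of them the parent was tested. In 14 pairs the copy was lower and the parent higher, in 6 both were higher, in 1 both were lower, and in 7 at least 1 did not pass. Rescaled, the copy was lower and the parent higher in 13 pairs, and both were higher in 11. Their 20 X-linked parents had 17 higher and 1 lower. Over all 733 X-linked genes tested, 59.9% were higher and 31.4% lower, where 36.2% of all genes were higher. Kif4-ps here, and Eif2s3x-ps1 and Zfa-ps below, are all from the 14 pairs with the copy lower and the parent higher. Among the 6 pairs with both higher, Rpl36a-ps2 went from 4.92 to 13.3 FPKM, with 0% unique windows. Kif4-ps, a copy of a mitotic chromokinesin gene, had 10.7, 9.55 and 10.8 FPKM in the control and 0.212, 0.298 and 0.198 in the knockout. Kif4 went from 2.33 ± 0.657 to 11.8 ± 2.09 FPKM, so the copy stood above its parent in every control library, by 3.23 to 6.51 times, and below it in every knockout library.

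Eif2s3x-ps1, a copy of the gene for the gamma subunit of the initiation factor eIF2, had 10.8, 8.44 and 10.1 FPKM in the control and 0.0417, 0.401 and 0.610 in the knockout. Eif2s3x rose from 1.73 ± 0.388 to 7.74 ± 0.533 FPKM. Zfa-ps, a copy of the zinc finger gene Zfx with a reading frame of 92.9% of the parent's coding length, had 4.89, 2.83 and 4.15 FPKM and then 0.338, 0.636 and 0.367, while Zfx rose from 2.95 ± 0.378 to 12.9 ± 0.835. All 3 copies kept their fall under rescaling. The 87 loci that lie on the X chromosome themselves had 23 higher and 44 lower and a median of -0.83, against a median of 1.11 for all X-linked genes tested. With FPKM rescaled they had 39 higher and 33 lower and a median of 0.06, against 2.37.

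Loci were also sorted by what surrounds them. Over all 1005 loci 21.2% were higher and 54.1% lower, and over all genes tested 36.2% and 50.4%. Of the 637 loci that overlap no other listed gene, 122 were higher and 365 lower. Of 137 in an intron on the same strand as the host gene 38 were higher and 67 lower, and where both passed, locus and host went the same way in 47 of 62. Of 186 in an intron on the opposite strand 48 were higher and 82 lower, with the same direction in 62 of 86. Of 27 loci in an exon of another gene on the opposite strand 2 were higher and 21 lower, and of 18 on the same strand 3 and 9. With FPKM rescaled the counts of higher and lower loci were 244 and 260 with no other gene, 66 and 42 in a same-strand intron, 90 and 50 in an opposite-strand intron, 5 and 17 in an opposite-strand exon, and 8 and 6 in a same-strand exon. Locus and host then went the same way in 48 of 67 same-strand and 76 of 102 opposite-strand intron pairs. The share in pairs of unrelated genes was not computed, and the part of the host in these counts was not tested. The strand setting of the counting is not given in the sources used here. Reads of a locus and of an overlapping gene cannot be told apart.

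Replicate libraries disagreed at some loci. Among loci with at least 50 reads in 1 library of the group, the highest library was 3 times or more the lowest at 18 of 438 in the control (4.11%) and at 24 of 353 in the knockout (6.8%), against 1.29% and 1.15% of all genes with that many reads. These were 36 loci in all, 6 of them in both groups. Among loci with at least 80% unique windows the shares were alike, 7 of 200 in the control (3.5%) and 6 of 92 in the knockout (6.52%). No single library set the 36 loci apart: control replicate 1 was the highest at 8 of the 18, and knockout replicate 3 at 11 of the 24. With these loci left out, 209 of the remaining 969 were higher and 528 lower.

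The largest rise of all, that of Gm8730, was of this kind. Gm8730 had 5.95, 4.15 and 3.83 FPKM in the control and 47.3, 276.3 and 306.8 in the knockout, a log2 fold change of 4.98 ± 0.650 (SE; limma's adjusted p = 0.00014). The groups did not overlap, but knockout replicate 1 was far below the other knockout libraries. Gm9625, the other Rplp0 copy, had 2.82, 1.12 and 1.53 FPKM and then 1.55, 55.0 and 57.2. Its groups overlapped, and its adjusted p of 0.039 in limma rose to 0.086 to 0.12 when any library other than knockout replicate 1 was left out. Rplp0 had 631.8, 591.1 and 591.8 FPKM in the control and 503.4, 317.5 and 353.5 in the knockout, so knockout replicate 1 was its highest. Rplp0 was lower by 0.66 on the log2 scale as deposited and higher by 0.53 with FPKM rescaled.

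Added together, a parent and 2 of its copies varied less between replicates than the copies did in the 3 sets that follow. In reads per 1000000 of the library's divisor, Rplp0, Gm8730 and Gm9625 summed to 882, 843 and 934 in the knockout, where the highest was 1.11 times the lowest, while for Gm8730 alone that ratio was 6.49 and for Rplp0 alone 1.59. The sum was 1060, 986 and 987 in the control, where the ratio was 1.07 both for the sum and for Rplp0 alone. Rps3a1, another small subunit protein gene, and its copies Rps3a2 and Rps3a3 showed the same in the knockout. Rps3a1 had 89.1, 281.2 and 113.7 FPKM, Rps3a2 207.9, 89.2 and 171.7, and Rps3a3 153.6, 108.6 and 210.4. The library with the most Rps3a1 had the least of both copies. Their sum was 374, 432 and 414 reads per 1000000 of the divisor, against 186, 193 and 191 in the control, and the ratios of highest to lowest were 1.16 for the knockout sum and 3.16 for Rps3a1 alone.

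Rpl30 and 2 of its 6 copies among the loci split in the control instead. Gm12191 had 232.7, 31.1 and 235.6 FPKM in the control and 26.3, 9.94 and 31.8 in the knockout, and Rpl30 had 17.5, 47.2 and 12.9 and then 31.3, 39.3 and 35.6. Gm12191 was lowest in control replicate 2, in which Rpl30 was highest. With Rpl30-ps10 the sum was 148, 159 and 140 reads per 1000000 of the divisor in the control and 109, 123 and 125 in the knockout. Gm12191 was lower as deposited (-2.53 ± 0.794, limma's adjusted p = 0.017) but not with FPKM rescaled (adjusted p = 0.15), and without control replicate 1, control replicate 3 or knockout replicate 2 its adjusted p was 0.088, 0.080 and 0.052. Gm13736, 100% identical over its whole length to part of the signal recognition particle gene Srp9, had 287.4, 269.6 and 276.9 FPKM in the control and 98.6, 112.1 and 19.7 in the knockout, and its call was also not kept with FPKM rescaled (adjusted p = 0.15). These 3 sets were chosen after their values were seen, and why libraries differ at them was not tested.

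**Figure D5:**
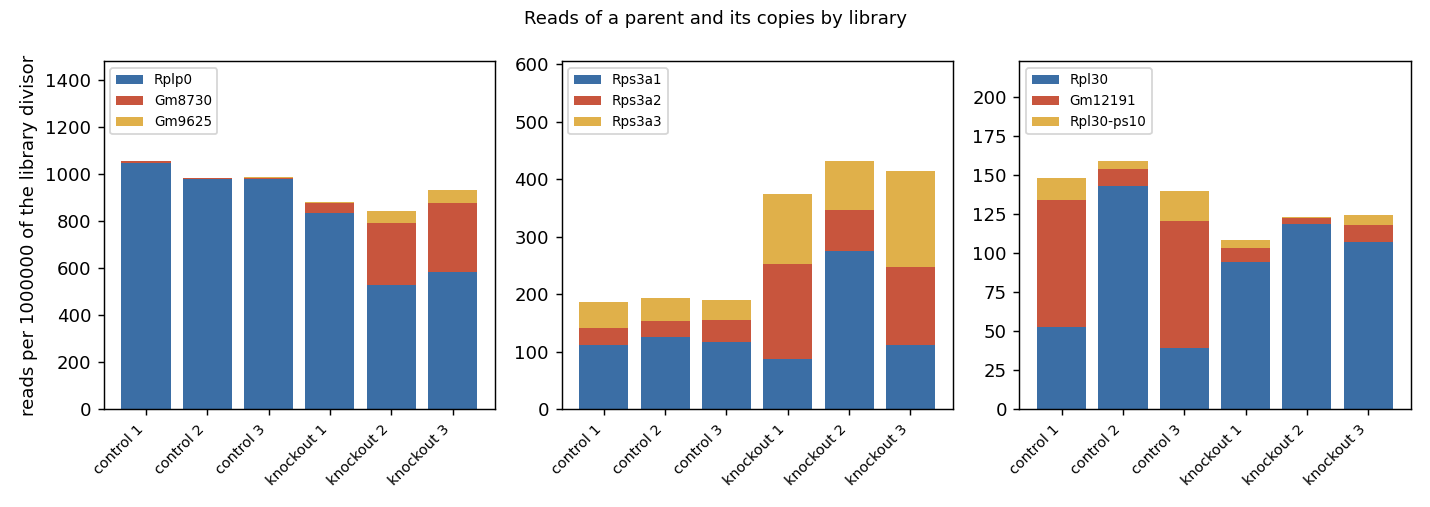
Reads per 1000000 of the library divisor (y axis, from 0) for 3 parents and 2 copies of each, stacked by library (x axis). The parts differ between replicates, as Gm8730 does in the knockout and Gm12191 in the control, while the bar heights within a group differ by 1.04 to 1.16 times.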

How the data were processed

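The authors deposited FPKM values per gene for 6 libraries, with gene length, coordinates and biotype. The submitters' processing notes name HISAT2 2.0.5 and mm10. The counter, annotation, strand setting and handling of multiply mapping reads were not given in the sources used here. FPKM times length gave whole reads for 100% of values (within 0.01 read), so reads were recovered. Samples were grouped by their labels. limma 3.58.1 (R 4.3.3) was fitted to log2(FPKM + 0.5), knockout minus control, with a mean-variance trend, over the 16791 genes whose mean reached 1 FPKM, with Benjamini-Hochberg adjustment and a threshold of 0.05. The fit was also tested on simulated data. Errors are SD over 3 libraries or moderated SE. A group with 0 reads was set to a floor of 3 reads over the group. Intervals and floors cover counting error only and rest on the deposited scaling.

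The 1005 loci were matched to GENCODE M21 (GRCm38), where 993 had the same coordinates. The parent was the symbol before -ps, the gene named in the deposited description, or the best protein-coding alignment by blastn 2.17.0 covering at least 50% of the locus (e-value 1e-10). Unique windows were checked against annotated transcripts alone. The members and lists were chosen with earlier results of these data known. Named loci are the 6 highest in each group and the 8 largest rises and falls (adjusted p under 0.05, non-overlapping groups, at least 5 FPKM in the higher group). Some of the loci named after a parent, not all of them, and those at the threshold are named too. Gm5518, Gm9625, Gm5070, Gm45855, Gm6981, Gm7336, Gm12191, Gm13736, Gm7901, Hmgb1-ps7 and the copies shown by parent were chosen after their values were seen. Alternatives were other pseudocounts, filters and scalings, no trend, a replicate block, limma voom on recovered reads and leaving out each library. The smallest p that an exact permutation of 3 against 3 libraries can give is 0.1, so none was used.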

Additional observations from a re-analysis of the deposited data

How the results depend on the processing

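The number of loci called higher (213), lower (544) and their median log2 fold change (-0.83) were recomputed under each alternative. When FPKM were rescaled to total 1000000, the higher count was 413 and the median 0.16, with quantile normalization 404 and 0.11, with reads rescaled to 1000000 377 and -0.071, and with limma voom on recovered reads 365 and -0.078, where the median of all genes moved from -0.41 to 0.71, 0.53, 0.42 and 0.47. The lower counts under these 4 were 375, 367, 409 and 402. The median was -0.96 with a pseudocount of 0.1 and -0.71 with 1. At a mean of at least 5 FPKM, where fewer loci are tested, 76 were higher and 213 lower, with a median of -0.98. Among loci that overlap no other gene 122 were higher and the median was -1.09. Chosen after seeing the data, loci with at least 80% unique windows gave 93 higher, 341 lower and -2.12, those with at least 1 FPKM in both groups 124, 189 and -0.10, and the median of those with at least 100 reads was -0.67. Leaving out 1 library gave 189 to 206 higher, 510 to 540 lower and medians of -0.92 to -0.78.

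Replicate numbers did not pair the libraries: same-numbered libraries had correlations of -0.12, -0.05 and -0.04 in their deviations from group means, and the replicate block gave 216 higher and 543 lower. The alternatives were followed for 44 of the named loci, and 40 of these kept their call in every alternative. The others were Rps4l, Gm9625, Gm12191 and Gm13736. Gm7901 and Hmgb1-ps7 were not among the 44. Neither passed as deposited, and both were called higher with FPKM rescaled. Leaving out 1 library moved Rps4l between -0.0059, without knockout replicate 3 (limma's adjusted p = 0.96), and 0.15. Gm9625 also lost its call without a filter (adjusted p = 0.088) and in limma voom (0.078). Where no cause is named here, the cause was not tested. Uniqueness over a whole genome was not run. Depth limits the 297 loci with under 100 reads.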
